A study of Homo sapiens with 8 samples.

Results

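A panel of 7 genes that mark stem and progenitor cells of the breast was followed through an isogenic series of mammary epithelial lines. They are ALDH1A1, ALDH1A3, CD44, CD24, PROM1, EPCAM and SOX9, 7 of the 56632 gene rows of the count table. The panel was listed by name, with earlier results of these data known. M1 is MCF10A, a spontaneously immortalized, non-tumorigenic mammary epithelial line. M2 is MCF10AT1k.cl2, a premalignant derivative of M1 that carries an introduced oncogenic HRAS allele (T24-HRAS) and had been grown in a mouse before it was established. When M2 was grafted into mice, a few grafts became carcinomas, and these were the source of M3 (MCF10Ca1h), whose tumors are low-grade, and of M4 (MCF10CA1a.cl1), whose tumors are poorly differentiated and which can seed the lung. Each stage is thus a single line, and what M2, M3 and M4 share apart from M1 includes the HRAS allele and passage through a mouse. Poly A+ RNA of 2 biological replicates per line was sequenced after 8 days of 3D culture in Matrigel with 2% horse serum. The medium held 10 ng/ml EGF for M1 and M2 and no EGF for M3 and M4, so a difference of M3 or M4 from M1 or M2 cannot be told apart from a difference between media.

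These genes mark stem and progenitor fractions in different ways. ALDH1A1 and ALDH1A3 are cytosolic retinaldehyde dehydrogenases that make retinoic acid, and their activity is what the fluorescent aldehyde dehydrogenase assay for stem-like cells reads. CD44 is the main surface receptor for hyaluronan, CD24 is a small, heavily glycosylated surface protein, and a high level of the former with a low level of the latter is the classical surface phenotype of tumor-initiating breast cells. PROM1 (CD133) is a pentaspan protein of membrane protrusions, EPCAM is a homophilic adhesion molecule of epithelia that separates luminal progenitors from basal cells in breast tissue when it is used together with the integrin ITGA6, and SOX9 is a transcription factor of luminal progenitors.

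No row of the count table was listed as CD24 itself. CD24 was read here from the row of ENSG00000185275, which release 44 of GENCODE names CD24P4, a processed pseudogene of 243 bases at chrY:21154353-21154595 on the minus strand of GRCh37. A search of GRCh37 with these 243 bases found 6 places, of which 1 (the row itself) was identical over the full length and the other 5 were between 71.7% and 89.4% identical. None of the 6 places was on chromosome 6, where newer assemblies carry the CD24 gene, and of 3 CD24 promoters of RefSeq (GRCh38.p14) 2 matched this assembly, both at the copy on Y. The first stretch of 30 bases that aligned without gaps, from base 3 to base 32 of the pseudogene, is shown as an example. Capitals mark bases that differ from CD24P4. The sequences are from GRCh37, written in the direction of the pseudogene.
CD24P4 at chrY:21154353-21154595: gggcagagcaatggtggccaggcttgggct
CD24P2 at chr15:56363620-56363837: gggcagagcaGtggtggccaggcttgggct
CD24P1 at chr1:15941138-15941369: ggAcaAagcaatggtggAcaggctCAggct
CD24P2 differed from CD24P4 at 1 of the 30 bases and CD24P1 at 5. Over the whole match, CD24P2 was 89.4% identical and CD24P1 79.1%, so the stretch does not stand for the full copies. The CD24 transcript itself was not aligned. The expected counts of the row were whole numbers in all 8 libraries. The 13 other genes of the count table within 250 kb of it on Y had 0 counts in every library. Which of the copies the counts of the row came from was not tested, and every CD24 value below is uncertain to that extent.

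Total counts ran from 69669972 to 107350336 per library. Spearman's rho between the replicates of a line, across 13495 genes (which are not independent replicates), was 0.971 for M1, 0.998 for M2, 0.977 for M3 and 0.986 for M4. The M2 pair also had a chi-square of counts per degree of freedom of 6.95, against 136 to 361 in the other lines, so the 2 replicates of M2 were far closer to each other than any other pair. A table that accompanies the study carries the label M1 replicate 2 on the values of the library labelled M2 replicate 1, and the reverse. The sample labels were kept, under which the replicates correlated more closely than with this pair exchanged (rho = 0.960 and 0.962), and the markers were also tested with the exchange. Where the sample labels are right, the exchange mixes M1 and M2 in both groups and widens the spread that all lines share. Calls lost under the exchange then show what rests on the labels, not how firm a difference is. In counts per 1e+06 of the TMM-scaled library size (CPM), HRAS was at 154 and 139 CPM in M1 cells, 160 and 154 in M2 cells, 269 and 327 in M3 cells and 335 and 352 in M4 cells. HRAS therefore does not check the label of M2 (log2 fold change 0.10, adjusted p = 0.736), and its row does not separate the introduced allele from the resident gene. Of 4 blood cell markers, PTPRC had at most 3 counts in any library, CD3E had 0 in every library and CD14 carried the list's sum of 1.06 to 24.6 CPM. The 3 endothelial markers that were matched summed to at most 3.12 CPM. The 6 fibroblast markers summed to 9.36 to 60.2 CPM in M1, 72.7 to 74.7 in M2, 10.1 to 16.0 in M3 and 6.43 to 7.57 in M4. Of these 6, 2 had under 10 counts in every library, among them COL1A2 with 0. The 10 basal and 10 luminal keratins and lineage genes summed to at least 7520 and 2207 CPM in every library.

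Among the markers other than CD24, CD44 had the highest mean level per length in every line, and PROM1 was close to absent. On a per-length scale (CPM per kilobase of annotated exon), the median level over the 8 libraries was 71.8 for CD44, 39.0 for EPCAM, 31.8 for SOX9, 24.0 for ALDH1A3, 1.07 for ALDH1A1 and 0.015 for PROM1. The lowest and highest libraries were at 46.5 and 90.2 for CD44, 20.5 and 81.7 for EPCAM, 22.7 and 64.5 for SOX9 and 6.53 and 73.5 for ALDH1A3. The ranges of these 4 genes overlapped, whereas ALDH1A1 stayed at or below 1.64 and PROM1 at or below 0.0916. In M1 replicate 2, SOX9 was above CD44 (64.5 against 55.3). No level per length is given for CD24, because its row is a copy, so CD24 was not ranked.

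**Figure D1:**
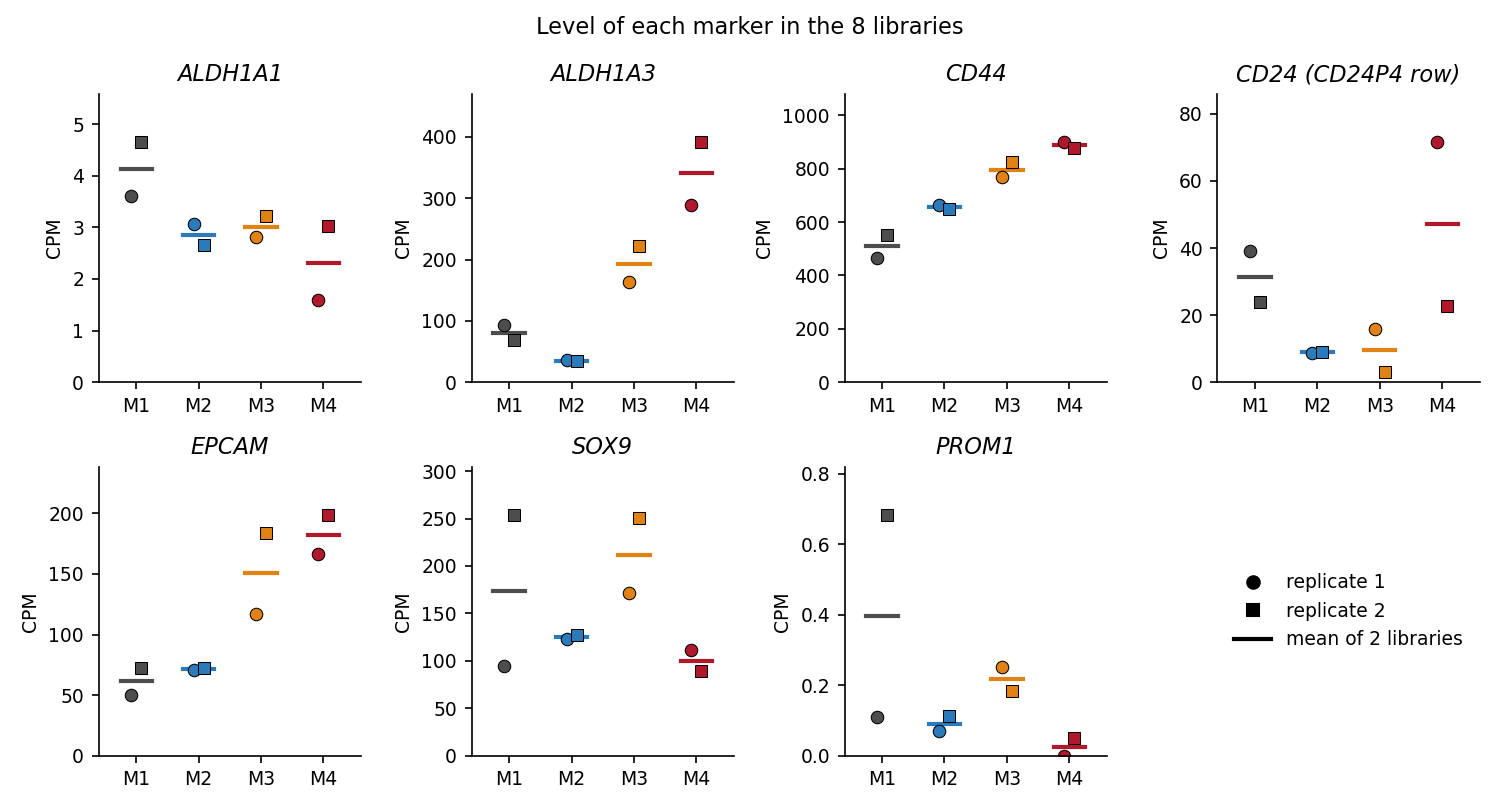
Level of each marker in CPM (linear axis from 0, a separate scale for each gene) in the libraries of M1 to M4, with circles for replicate 1, squares for replicate 2 and a line at the mean of 2 libraries. ALDH1A3 is lowest in M2 (34.8 and 35.5 CPM) and highest in M4 (289 and 392 CPM), CD44 and EPCAM have their highest means in M4, and the replicates of CD24, PROM1 and SOX9 lie far apart in some lines.

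Of the 7 markers, 3 differed among the lines. In edgeR's quasi-likelihood F test over the 4 lines with Benjamini-Hochberg adjustment over 18432 genes, in which 36.4% of all genes passed, the markers with an adjusted p under 0.05 were ALDH1A3 (adjusted p = 0.00054), EPCAM (adjusted p = 0.00629) and CD44 (adjusted p = 0.0196). CD24 (adjusted p = 0.0772), PROM1 (adjusted p = 0.130), SOX9 (adjusted p = 0.190) and ALDH1A1 (adjusted p = 0.298) were not called. All 7 passed the filter on low counts. With M1 replicate 2 and M2 replicate 1 exchanged, ALDH1A3 and EPCAM were still called and CD44 was not (adjusted p = 0.213).

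For pairs of lines, a gene was called when its adjusted p was under 0.05 and its change was more than 2-fold. In M2 against M1, 1 marker was called, ALDH1A3, which fell, where 3.37% of all genes tested were called and 1.11% were called lower. In M3 against M1 the markers called were ALDH1A3 and EPCAM, 2 of 7, both higher (13.5% of all genes called, 8.02% higher). The same held in M4 against M1 (20.7% called, 9.48% higher) and in M4 against M2 (13.9% called, 6.98% higher). In M3 against M2 it was ALDH1A3 alone, again higher (4.15% called, 2.95% higher). In M4 against M3 (10.3%) 0 of the 7 markers were called. There, 4 had an unadjusted p under 0.05 (ALDH1A3, CD24, PROM1 and SOX9) and DESeq2 called 2 (CD24 and SOX9). The share of all genes under these 2 rules was not worked out, so neither count can be set against a background. With no limit on the fold, CD44 was added in M3 and in M4 against M1 and ALDH1A3 in M4 against M3, where 21.3%, 31.4% and 16.8% of all genes passed. A change over 2-fold in both replicates, a rule without a test, was met by 1 marker in M2 (CD24), 2 in M3 (CD24 and EPCAM) and 3 in M4 (ALDH1A3, EPCAM and PROM1) against M1, where 11.4%, 16.7% and 20.7% of the 29446 genes with a count met it. It was met by 4 markers in M4 against M2 (ALDH1A3, CD24, EPCAM and PROM1; 18.7% of genes) and 2 in M4 against M3 (CD24 and PROM1; 16.1%). Comparisons that share a line share its libraries, so they are not independent of one another. In bulk RNA, fewer cells that express a gene and less of its RNA per cell cannot be told apart.

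**Figure D2:**
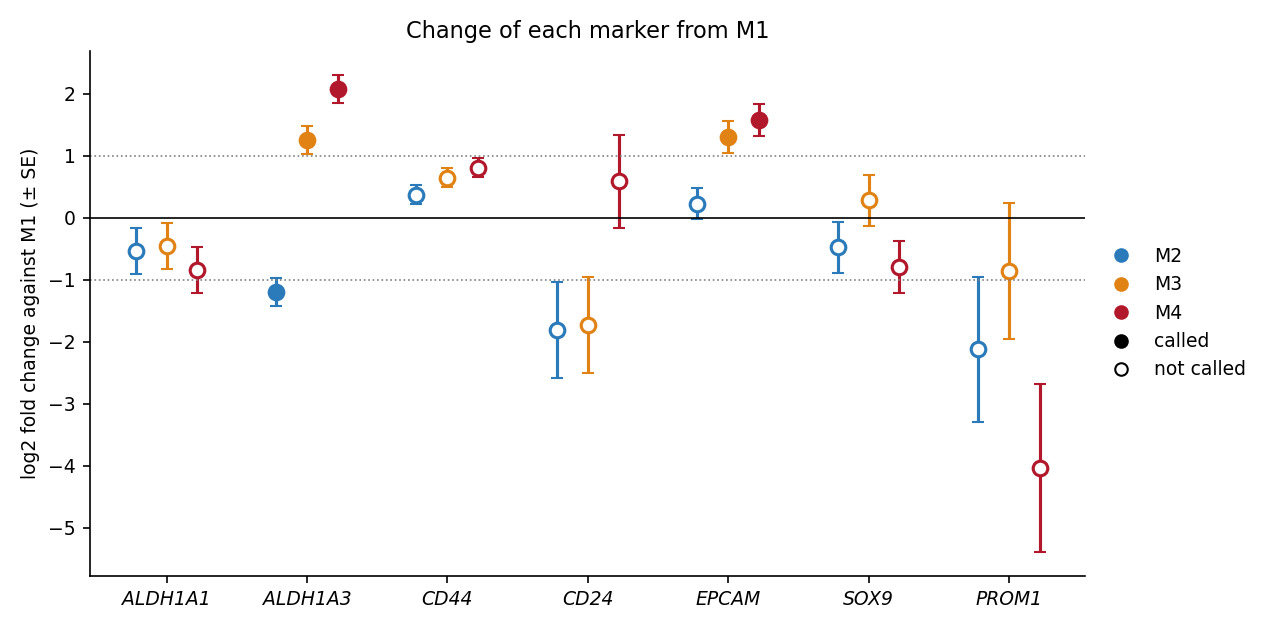
Log2 fold change of each marker in M2, M3 and M4 against M1, with bars of 1 SE from edgeR's quasi-likelihood fit; filled points were called and dotted lines mark a 2-fold change. ALDH1A3 is called below 0 in M2 (-1.20) and above 0 in M3 (1.25) and M4 (2.08), EPCAM is called in M3 and M4, CD44 stays under the dotted line in all 3 lines, and the bars of CD24 and PROM1 are the widest.

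ALDH1A3 had the largest called change of the 7 markers, 9.68-fold between M2 and M4. The gene (ENSG00000184254, chr15:101417919-101456831, plus strand) was at 92.6 and 69.1 CPM in M1 cells, 35.5 and 34.8 in M2 cells, 164 and 222 in M3 cells and 289 and 392 in M4 cells. No library of one line overlapped with those of another, and the order of the lines was M2, M1, M3, M4. Its level fell 2.30-fold in M2 compared to M1 (log2 fold change -1.20 ± 0.226 SE, n = 2 per line, edgeR adjusted p = 0.0278). It then rose 2.38-fold above M1 in M3 (1.25 ± 0.226, adjusted p = 0.00853) and 4.21-fold in M4 (2.08 ± 0.231, adjusted p = 0.000842). Against M2, the rise was 5.48-fold in M3 (2.45 ± 0.235, adjusted p = 0.00271) and 9.68-fold in M4 (3.28 ± 0.243, adjusted p = 0.000389). M4 was also above M3 (1.77-fold, adjusted p = 0.0434), under the 2-fold limit. The rises over M1 and over M2 were called whichever library was left out, and the fall in M2 was lost without M1 replicate 1 (adjusted p up to 0.243 over the 8 omissions), M2 replicate 1 or M2 replicate 2. With the exchanged pair, M4 against M1 (2.41 ± 0.508, adjusted p = 0.0289) and against M2 (2.71 ± 0.514, adjusted p = 0.0191) were called, and the fall in M2 (-0.30 ± 0.483) and the rises in M3 (1.59 against M1, 1.89 against M2) were not.

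The expected counts of ALDH1A3 were not whole numbers in all 8 libraries, which shows that some of its reads were shared out between genes. An antisense gene, ALDH1A3-AS1 (chr15:101432548-101459596, minus strand), overlaps it over 24284 bases, and whether the counting used strand is not given in the sources used here. ALDH1A3-AS1 was at 1.56 to 6.20 CPM, so its counts were small beside those of ALDH1A3. It was itself higher in M4 than in M2 (log2 fold change 1.79 ± 0.291, adjusted p = 0.00562) and in M3 (1.56 ± 0.288, adjusted p = 0.0129).

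ALDH1A1, the related enzyme that gave the ALDH1 assay its name, was low in all lines and was not called in any comparison. The gene (ENSG00000165092, chr9:75515587-75695358, minus strand) was at 3.61 and 4.66 CPM in M1 cells, 3.05 and 2.66 in M2 cells, 2.80 and 3.23 in M3 cells and 1.59 and 3.02 in M4 cells. Every library of M2, M3 and M4 was below both of M1, and the 3 later lines overlapped with each other. The log2 fold change of M4 against M1 was -0.84 ± 0.369 (adjusted p = 0.120). Per kilobase of exon, ALDH1A3 exceeded ALDH1A1 13.6-fold and 7.90-fold in M1 cells, 6.19-fold and 6.97-fold in M2 cells, 31.1-fold and 36.6-fold in M3 cells and 96.5-fold and 69.1-fold in M4 cells. The lowest of these ratios was in M2 and the highest in M4, and the libraries of M3 and M4 did not overlap with those of M1 and M2.

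The rise of ALDH1A3 was not shared by most of its family. Of the other 17 aldehyde dehydrogenases, all of them tested, 6 fell and 0 rose in M4 compared to M1, where 11.3% of all genes fell, and the median log2 fold change of the 17 was -1.55, against -0.02 over all genes tested. In M3, 5 fell and 1 rose (median -0.94 against -0.02), where 5.51% of all genes fell and 8.02% rose. In M2 none was called (median -0.56 against -0.04), where 3.37% of all genes were called. The enzymes that fell in both M3 and M4 were ALDH4A1 of proline breakdown, ALDH5A1 of GABA breakdown, ALDH7A1 of lysine breakdown and ALDH3B2, which acts on lipid aldehydes. ALDH7A1 went from 209 and 310 CPM in M1 to 129 and 124 in M3 and to 42.5 and 41.4 in M4 (M4 against M1, log2 fold change -2.63 ± 0.197, adjusted p = 0.000223). ALDH4A1 went from 83.6 and 91.2 CPM in M1 cells to 38.4 and 36.7 in M2 cells, 21.1 and 10.0 in M3 cells and 8.16 and 7.03 in M4 cells (M4 against M1, -3.52 ± 0.329, adjusted p = 0.000448). Both genes were lower in each library of M4 than in any library of the other lines. ALDH16A1 was called lower in M4 (-1.12 ± 0.180 against M1), and ALDH1L1, an enzyme of folate metabolism, was the one called higher in M3 (3.26 ± 0.658, adjusted p = 0.0129). The summed level of the 17 was 1078 and 1124 CPM in M1 and 525 and 695 CPM in M4.

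**Figure D3:**
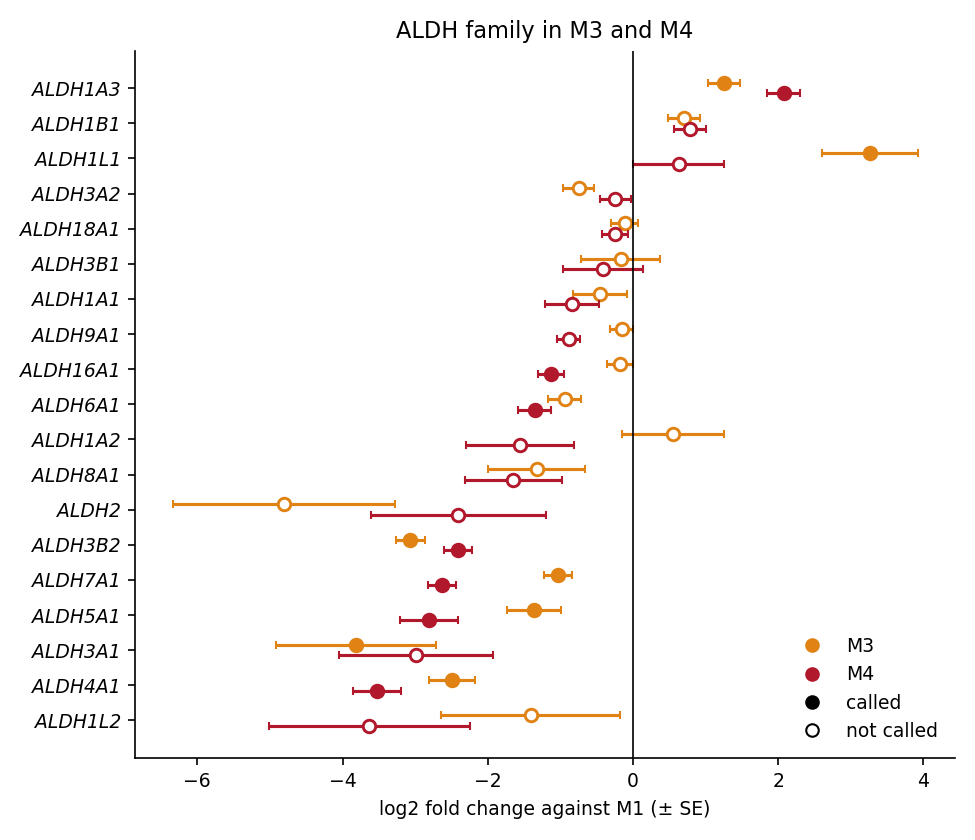
Log2 fold change against M1 of ALDH1A1, ALDH1A3 and the other 17 aldehyde dehydrogenases in M3 and M4, ordered by the value in M4, with bars of 1 SE from edgeR's quasi-likelihood fit and filled points for called genes. ALDH1A3 (2.08) is at the top and the one filled M4 point above 0, and the 6 filled M4 points below 0 run from -1.12 to -3.52.

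Genes around retinoic acid, the product of ALDH1A1 and ALDH1A3, were called in both directions. Of 20 genes listed, 14 were tested, and 1 rose and 1 fell in M2, 3 rose and 2 fell in M3 and 2 rose and 2 fell in M4, each against M1, with medians of -0.11, -0.38 and -0.11. Over all genes tested, 3.37%, 13.5% and 20.7% were called in these comparisons. LRAT, which stores retinol as esters, rose from 11.1 and 18.3 CPM in M1 cells to 49.0 and 54.1 in M2 cells, 84.9 and 127 in M3 cells and 74.0 and 86.5 in M4 cells (M4 against M1, log2 fold change 2.45 ± 0.283, adjusted p = 0.000959). CRABP2, which delivers retinoic acid to its nuclear receptors, fell from 30.8 and 60.6 CPM in M1 to 16.7 and 15.6 in M2, which was not called, 7.38 and 2.03 in M3 cells and 1.45 and 0.551 in M4 cells (M4 against M1, -5.49 ± 0.776, adjusted p = 0.00265). LRAT and CRABP2 thus moved in opposite directions, and the libraries of M1 did not overlap with those of M3 and M4 for either.
Genes known as retinoic acid targets differed from one another. TGM2, tissue transglutaminase, was under 1 CPM in all 4 libraries of M1 and M2, at 53.9 and 43.3 CPM in M3 and at 1.95 and 3.59 in M4 (M3 against M1, 7.08 ± 0.545, adjusted p = 0.000509). RARRES1 was lowest in M2, as ALDH1A3 was, at 3.05 and 3.88 CPM, overlapped between M1 (7.69 and 8.45) and M4 (7.87 and 8.35), and was highest in M3 at 16.9 and 22.6. RARRES3, which release 44 lists as PLAAT4, fell from 1.81 and 3.90 CPM in M1 to 0.264 and 0.077 in M4 (-4.02 ± 0.677, adjusted p = 0.00432). The receptors RARA, RARG, RXRA and RXRB were not called in any comparison. Under the 2-fold limit, RARG was lower in M4 than in M1 (-0.67, edgeR adjusted p = 0.0127) and in M2 (-0.80, adjusted p = 0.00925).

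CD44 rose by less than 2-fold along the series. The gene (ENSG00000026508, chr11:35160429-35253949, plus strand) was at 465 and 553 CPM in M1 cells, 666 and 648 in M2 cells, 769 and 824 in M3 cells and 901 and 878 in M4 cells. The 4 lines did not overlap and stood in the order M1, M2, M3, M4. CD44 was 1.56-fold higher in M3 than in M1 (log2 fold change 0.65 ± 0.154, edgeR adjusted p = 0.0233) and 1.75-fold higher in M4 (0.81 ± 0.154, adjusted p = 0.00713), both under the 2-fold limit. The step from M1 to M2 (0.37 ± 0.154, adjusted p = 0.203), from M2 to M3 (0.28 ± 0.153, adjusted p = 0.335) and from M3 to M4 (0.16 ± 0.153, adjusted p = 0.502) did not pass on its own. With the exchanged pair, CD44 passed in neither M3 (0.49) nor M4 (0.65, adjusted p = 0.128) against M1. Counts per gene do not tell the standard isoform of CD44 from its variant isoforms.

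Of 18 ligands, partners and splicing factors of CD44, all tested, 4 rose and 0 fell in M3 against M1 and 5 rose and 1 fell in M4, with medians of 0.35 and 0.43. Over all genes, 8.02% were called higher in M3 and 9.48% in M4, and the other 14 genes of the list in M3 and 12 in M4 were not called. In M2 it was 1 higher and 0 lower, where 2.26% of all genes were called higher. HAS3, a hyaluronan synthase, was at 5.74 and 15.2 CPM in M1 cells, 23.7 and 20.1 in M2 cells, 99.7 and 85.5 in M3 cells and 121 and 80.3 in M4 cells (M4 against M1, 3.26 ± 0.443, adjusted p = 0.00206). Every library of M3 and M4 was above those of M1 and M2. HMMR, a hyaluronan-binding protein that also sits on the mitotic spindle, rose already in M2, from 18.5 and 14.7 CPM in M1 to 69.1 and 68.3 in M2 (2.05 ± 0.172, adjusted p = 0.00604), and stayed higher in M3 and M4. The hyaluronidases HYAL1 and HYAL3 were higher in M4 than in M1 (3.04 ± 0.636 and 2.02 ± 0.285), HYAL1 from at most 0.471 CPM. HAS2 was called higher in both lines but had at most 75 counts in any library and 5 in one of M4. SPP1 (osteopontin), another ligand of CD44, was the gene that fell, from 2.88 and 2.76 CPM in M1 to 0.0352 and 0.243 in M4 (-4.40 ± 0.841, adjusted p = 0.00716). ESRP1 and ESRP2, the factors that splice CD44 into its epithelial variants, and the linkers EZR, MSN and RDX were not called in any comparison. Some of them passed edgeR's adjusted p under the 2-fold limit, as CD44 did. MSN was higher than in M1 in M2 (0.88, adjusted p = 0.0338), M3 (0.84, adjusted p = 0.0151) and M4 (0.73, adjusted p = 0.0177). EZR was higher in M4 than in M2 (0.79, adjusted p = 0.0182). ESRP2 was lower in M3 than in M1 (-0.73, adjusted p = 0.0112). ESRP1 and RDX passed in no comparison.

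The CD24 row was highest in one library of M4 and lowest in one of M3. It was at 39.1 and 23.8 CPM in M1 cells, 8.81 and 9.04 in M2 cells, 15.8 and 3.16 in M3 cells and 71.7 and 22.6 in M4 cells. The libraries of M2 and M3 were all below those of M1 and M4, but the replicates of M3 and M4 differed by several fold. Its log2 fold change against M1 was -1.82 ± 0.774 in M2 (edgeR adjusted p = 0.214), -1.73 ± 0.772 in M3 (adjusted p = 0.151) and 0.59 ± 0.748 in M4 (adjusted p = 0.590). Against M2 and M3, M4 stood at 2.40 ± 0.788 (adjusted p = 0.0675) and 2.32 ± 0.786 (adjusted p = 0.0850). None of these was called, and both differences of M4 from M2 and M3 were called by DESeq2 (adjusted p = 0.0262 and 0.0374). Without M3 replicate 1, M3 against M1, M4 against M2 and M4 against M3 were called.

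The balance of CD44 and CD24, which defines the CD44-high, CD24-low phenotype, was described by the log2 ratio of their CPM in each library. The ratio was 3.57 and 4.54 in M1 cells, 6.24 and 6.16 in M2 cells, 5.61 and 8.03 in M3 cells and 3.65 and 5.28 in M4 cells. M2 and M3 were above both libraries of M1 and M4, whose ranges overlapped. The mean was 4.05 ± 0.683 (SD, n = 2) for M1, 6.20 ± 0.0544 for M2, 6.82 ± 1.71 for M3 and 4.47 ± 1.15 for M4. An exact two-sided permutation test of 2 libraries against 2 cannot go below p = 0.333, so no test of the ratio was made. CD44 ranged from 465 to 901 CPM over the libraries and the CD24 row from 3.16 to 71.7 CPM, so most of the spread of the ratio came from the CD24 row, whose source is uncertain.

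**Figure D4:**
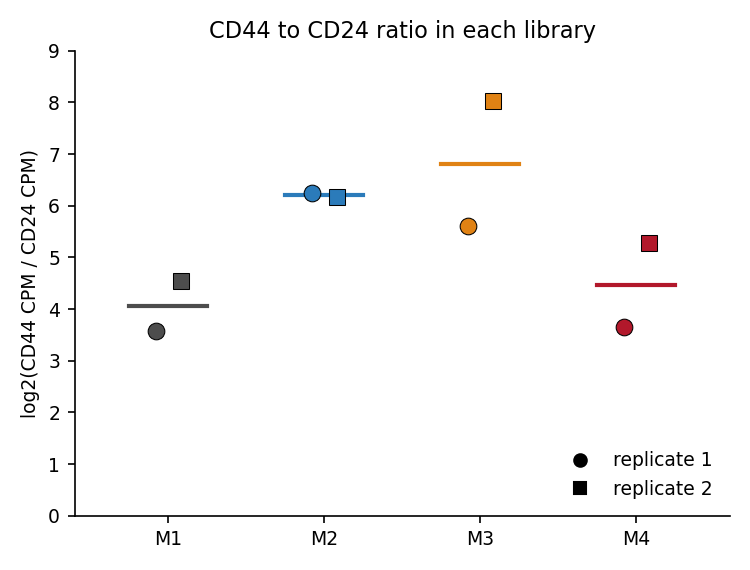
Log2 ratio of CD44 CPM to the CPM of the CD24 row in each library (circles replicate 1, squares replicate 2, lines the mean of 2 libraries). The 4 libraries of M2 and M3 lie between 5.61 and 8.03 and the 4 of M1 and M4 between 3.57 and 5.28.

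EPCAM was higher in M3 and M4 than in M1. The gene (ENSG00000119888, chr2:47572297-47614740, plus strand) was at 49.9 and 72.6 CPM in M1 cells, 70.9 and 72.2 in M2 cells, 117 and 184 in M3 cells and 166 and 199 in M4 cells. M1 and M2 overlapped, M3 and M4 overlapped, and both libraries of M3 and M4 were above all 4 of M1 and M2. EPCAM rose 2.46-fold in M3 against M1 (log2 fold change 1.30 ± 0.255, edgeR adjusted p = 0.0117) and 2.98-fold in M4 (1.57 ± 0.257, adjusted p = 0.00379). Against M2 it was 2.10-fold higher in M3 (1.07 ± 0.254, adjusted p = 0.0526, not called) and 2.55-fold higher in M4 (1.35 ± 0.255, adjusted p = 0.00968). M2 against M1 (0.22 ± 0.251) and M4 against M3 (0.28 ± 0.251) were not called. The rise of M4 over M1 was called without any one of the 8 libraries and with the exchanged pair (1.59 ± 0.274, adjusted p = 0.0158). The rise of M3 over M1 was lost without M1 replicate 1 or M3 replicate 2 and with the exchanged pair (adjusted p = 0.0701), and that of M4 over M2 without M2 replicate 1, M2 replicate 2 or M4 replicate 2.

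PROM1 was too low to compare. The gene (ENSG00000007062, chr4:15964699-16086001, minus strand) had 9 and 56 counts in M1 cells, 7 and 8 in M2 cells, 20 and 16 in M3 cells and 0 and 4 in M4 cells, at most 0.683 CPM, and 0 counts allow up to 3 in that library by counting error alone. The 56 counts of M1 replicate 2 stood apart from the other libraries. The log2 fold change of M4 against M1 was -4.04 ± 1.35 (edgeR adjusted p = 0.0544), and it was called without M1 replicate 1 and by DESeq2 (adjusted p = 0.0258).

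The relatives and partners of EPCAM and PROM1 held 9 genes, all tested. In M2 against M1, 0 rose and 2 fell. In M3, 0 rose and 1 fell, and in M4, 1 rose and 1 fell. Over all genes tested, 3.37%, 13.5% and 20.7% were called in these comparisons. CLDN7, a claudin that binds EPCAM, was at 86.6 and 86.0 CPM in M1 cells, 32.4 and 32.3 in M2 cells, 105 and 175 in M3 cells and 386 and 290 in M4 cells. Its fall in M2 (log2 fold change -1.42 ± 0.248, adjusted p = 0.0214) and its rise in M4 (1.97 ± 0.251 against M1, adjusted p = 0.00146) put the lines in the same order as ALDH1A3, and M3 against M1 was not called. PROM2, the paralog of PROM1, was abundant where PROM1 was not, at 366 and 411 CPM in M1 cells, 253 and 252 in M2 cells, 126 and 101 in M3 cells and 99.2 and 104 in M4 cells. PROM2 fell in M3 (-1.77 ± 0.156, adjusted p = 0.000669) and in M4 (-1.94 ± 0.157, adjusted p = 0.000278) against M1. CDH1 (E-cadherin) was not called in any comparison. Under the 2-fold limit, it was lower in M3 than in M1 (-0.56, edgeR adjusted p = 0.0316) and higher in M4 than in M3 (0.66, adjusted p = 0.0232).

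Within M1, SOX9 varied as much as it did between lines. The gene (ENSG00000125398, chr17:70117161-70122557, plus strand) was at 94.2 and 254 CPM in M1 cells, 123 and 127 in M2 cells, 172 and 250 in M3 cells and 111 and 89.1 in M4 cells. The libraries of M1 overlapped with those of every other line, and both of M3 were above those of M2 and M4. The log2 fold change was -0.48 ± 0.413 in M2, 0.28 ± 0.412 in M3 and -0.79 ± 0.414 in M4 against M1 (edgeR adjusted p = 0.531, 0.666 and 0.184) and -1.07 ± 0.416 in M4 against M3 (adjusted p = 0.117). SOX9 was called in M4 against M1 without M1 replicate 1, in M3 against M1 without M1 replicate 2 and in M4 against M3 without either library of M1 or by DESeq2 (adjusted p = 0.0416).
Of 4 long noncoding RNAs tested within 250 kb of SOX9, 1 was called. ROCR, a noncoding RNA that regulates SOX9 in cartilage formation, had 10 and 33 counts in M1 cells, 0 and 3 in M2 cells, 61 and 87 in M3 cells and 1 and 0 in M4 cells, and was called in M4 against M1 (adjusted p = 0.0220), M3 against M2 (adjusted p = 0.0422) and M4 against M3 (adjusted p = 0.0146). SOX9-AS1, which spans SOX9 on the other strand, had 53 and 225 counts in M1 cells, 39 and 32 in M2 cells, 167 and 290 in M3 cells and 94 and 15 in M4 cells, and was not called. LINC02097 had 10 and 24 counts in M1 cells, 0 in both libraries of M2, 3 and 1 in M3 cells and 12 and 0 in M4 cells, and was not called.

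Of 16 other SOX factors listed, 9 were tested, and 0 rose, 4 fell and 5 were not called in M4 against M1 (median -1.40), where 11.3% of all genes fell. None was called in M2 or M3 against M1, where 3.37% and 13.5% of all genes were called. SOX12, one of the SOXC group, went from 33.7 and 32.0 CPM in M1 to 11.1 and 13.7 in M4 (log2 fold change -1.40 ± 0.184, adjusted p = 0.00161). SOX4, also of that group, fell by 1.85 ± 0.503 on the log2 scale (adjusted p = 0.0294) from 41.2 and 140 CPM in M1, and is named after its value was seen. Without M1 replicate 2 its change was -0.72 and was not called. SOX5 and SOX18 were low throughout, and SOX18 went from 15 and 13 counts in M1 to 0 in both libraries of M4, at least 5.24-fold lower (against 3 counts per library). SOX13 was higher in M3 (1.18 ± 0.194) and M4 (1.48 ± 0.195) than in M2.

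Of 22 other genes used as stem or progenitor markers, 17 were tested, with calls in both directions in M3 and M4. In M2 against M1, 1 rose and 0 fell, in M3 5 rose and 2 fell, in M4 3 rose and 2 fell, and in M4 against M3 3 rose and 5 fell. The medians were 0.35, 0.50, 0.17 and -0.90. Over all genes, 3.37%, 13.5%, 20.7% and 10.3% were called in these comparisons, and in M3 against M1 8.02% rose and 5.51% fell. ITGA6 (CD49f) and ITGB1 (CD29), integrin chains used to sort mammary stem cells, rose in both M3 and M4. ITGA6 went from 291 and 420 CPM in M1 cells to 756 and 758 in M2 cells, 882 and 1506 in M3 cells and 732 and 941 in M4 cells (M3 against M1, log2 fold change 1.75 ± 0.296, adjusted p = 0.00682). All 6 libraries of M2, M3 and M4 were above those of M1.
PROCR, a receptor on multipotent mammary cells, was at 33.1 and 32.8 CPM in M1 cells, 68.1 and 66.5 in M2 cells, 97.6 and 68.2 in M3 cells and 27.8 and 31.4 in M4 cells, higher in M2 (1.03 ± 0.182, adjusted p = 0.0223) and M3 (1.33 ± 0.183) than in M1. BCL11B, a factor of quiescent mammary stem cells, fell in M3 from 4.76 and 5.36 CPM in M1 to 0.594 and 0.310 (-3.48 ± 0.452, adjusted p = 0.00261), and the drug efflux pump ABCG2 fell there too (-3.10 ± 0.50, adjusted p = 0.00571). THY1 (CD90) had 481 and 153 counts in M3 and at most 5 in any other library. In M4, TP63, the master factor of basal cells, fell from 89.6 and 108 CPM in M1 to 36.2 and 39.8 (-1.38 ± 0.172, adjusted p = 0.00133), TSPAN8 fell from 59 and 67 counts to 1 and 4, and KLF4 rose (1.18 ± 0.219, adjusted p = 0.00634). NANOG and MSI1 had 0 counts in every library and SOX2 at most 14.

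**Figure D5:**
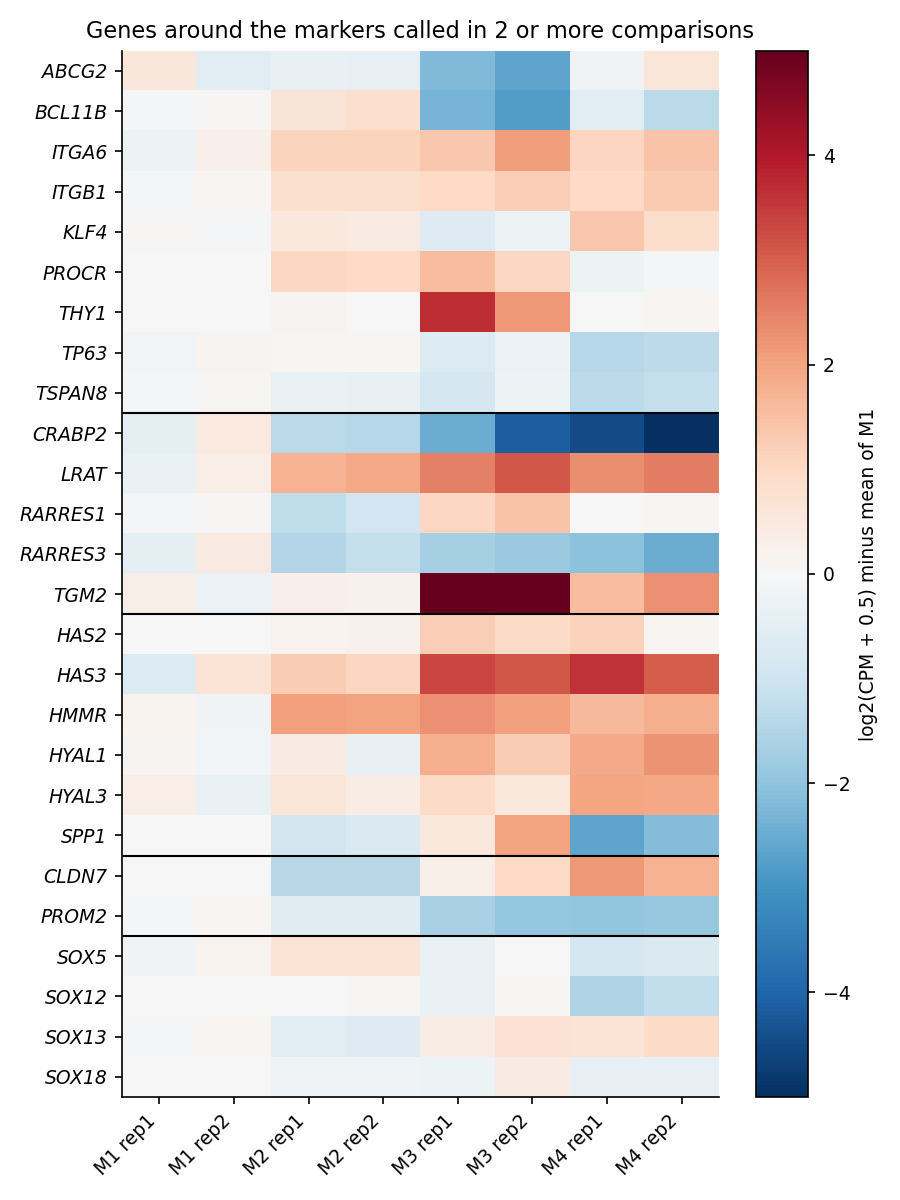
Map of 26 genes from the lists around the markers that were called in 2 or more comparisons, in each library, as log2(CPM + 0.5) minus the mean of M1, with the colour scale ending at 5 in both directions (TGM2 in M3 is beyond it). Black lines separate, from top to bottom, other stem and progenitor markers, retinoic acid, CD44 ligands and partners, EPCAM and PROM1 relatives, and SOX factors; HAS3 and LRAT are red and CRABP2 and PROM2 blue in all 4 libraries of M3 and M4.

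Because the markers separate luminal from basal cells in breast tissue, the lineage genes are given beside them. Of 9 luminal genes tested, 3 rose (KRT7, KRT18 and KRT8, the last named after its value was seen) and 2 fell (GATA3 and MUC1) in M4 against M1, where ALDH1A3 and EPCAM were higher. KRT18 went from 414 and 445 CPM in M1 to 2089 and 1340 in M4 (log2 fold change 2.00 ± 0.225, adjusted p = 0.000865), and MUC1, a luminal surface mucin, from 56.5 and 32.2 to 1.78 and 0.999 (-4.98 ± 0.367, adjusted p = 0.000219). Of 9 basal genes tested, 5 rose and 0 fell in M3, and 2 rose and 3 fell in M4. Over all genes tested, 8.02% rose and 5.51% fell in M3 against M1, and 9.48% rose and 11.3% fell in M4 against M1. KRT14, a basal keratin, was at 17.7 and 8.26 CPM in M1 cells, 37.3 and 36.3 in M2 cells, 99.7 and 91.1 in M3 cells and 2.30 and 2.74 in M4 cells, highest in M3 and lowest in M4 (M4 against M3, -5.24 ± 0.369, adjusted p = 0.000947). The summed level of the luminal list was 2207 to 2954 CPM in M1 and 5577 to 8741 CPM in M4. Most of this sum came from KRT7, KRT8 and KRT18 (4335, 2281 and 2089 CPM in M4 replicate 1), so it says little of the other luminal genes. The summed level of the basal list was 9085 to 10598 CPM in M1, 13949 to 14946 in M3 and 7520 to 9213 in M4. Of 6 mesenchymal genes, 1 fell in M4 (ZEB2, named after its value was seen) and none was called in M2 or M3. The part of these lineage genes in the differences of the markers was not tested.

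Of 72 other genes annotated within 250 kb of a marker and present in the table, 23 were tested and 7 were called in at least 1 comparison, against 31.2% of all genes. Beside ALDH1A3-AS1 and ROCR, they included ANXA1 next to ALDH1A1, FGFBP1 and FGFBP2 next to PROM1, and CALM2 next to EPCAM. FGFBP1, which releases stored fibroblast growth factors, stood at 53.5 and 31.3 CPM in M1 and at 199 to 362 CPM in all 6 libraries of M2, M3 and M4 (M3 against M1, log2 fold change 2.99 ± 0.252, adjusted p = 0.000594). CALM2, a calmodulin gene, rose with EPCAM in M3 against M1 (1.37 ± 0.152, adjusted p = 0.00147), but was not called in M4 against M1 (0.54 ± 0.149), where EPCAM was highest. ANXA1 rose in M4 (1.74 ± 0.285 against M1, adjusted p = 0.00388), where ALDH1A1 had its lowest library. No gene next to CD44 was called. Under the 2-fold limit, APIP was lower in M4 than in M1, M2 and M3 (-0.51, -0.63 and -0.56, edgeR adjusted p = 0.0351, 0.0220 and 0.0397). PDHX was lower in M4 than in M1 (-0.54, adjusted p = 0.0192). With M1 replicate 2 and M2 replicate 1 exchanged, the named genes lost 10 of 10 calls in M2 against M1 (ALDH1A3, CLDN7, FGFBP1, HMMR, KDR, KRT14, KRT17, LRAT, PROCR and RARRES1), 26 of 35 in M3 against M1 and 16 of 44 in M4 against M1. The same exchange ended 13 of 20 calls in M3 against M2, 8 of 37 in M4 against M2 and 19 of 30 in M4 against M3. Under the kept labels, the exchange mixes M1 and M2 in both groups, so the losses in M2 against M1 were set by its design.

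For each marker, the 3 protein-coding genes whose log2 CPM over the 8 libraries correlated most closely with it (Pearson's r, among 12262 other genes with at least 1 CPM in 2 libraries) were listed as a description. The 8 points are 2 libraries from each of 4 lines, and with so many genes high values of r are found for any marker. For ALDH1A3 they were MUL1 (r = 0.991), SLC5A3 (r = 0.987) and SOX13 (r = 0.982), although MUL1 ranged from 44.4 to 59.4 CPM, far less than ALDH1A3. CD44 was closest to HMGA2 (r = 0.991), WDR53 (r = 0.990) and NIBAN2 (r = 0.988). HMGA2, a chromatin protein of embryonic and tumor cells, was at 3.90 and 7.84 CPM in M1 and 81.8 and 67.6 in M4. EPCAM was closest to MAP2K3 (r = 0.992), the cyclin gene CCND1 (r = 0.989) and JMJD4 (r = 0.989). The CD24 row was closest to ELF3 (r = 0.994), an epithelial transcription factor, which was at 99.9 and 78.9 CPM in M1 cells, 37.8 and 39.0 in M2 cells, 51.3 and 16.2 in M3 cells and 146 and 64.3 in M4 cells. ELF3 therefore had the same high and low libraries as the CD24 row within M3 and within M4. ALDH1A1 was closest to ZNF740 (r = 0.964), PIGS (r = 0.960) and CYB561 (r = 0.955), and SOX9 to ADGRG7 (r = 0.969), CD180 (r = 0.965) and SLC27A1 (r = 0.960). PROM1 did not reach 1 CPM and was left out.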

How the data were processed

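Poly A+ RNA of M1 to M4 was sequenced as paired-end reads by the authors. Trimming was with Trimmomatic, alignment to hg19 with STAR, and quantification with STAR/RSEM against the GENCODE v19 annotation. What was deposited is a table of expected counts for each gene, without normalization; tool versions and any use of strand are not given in the sources used here. The expected counts were rounded to whole numbers, and symbols, positions and exon lengths came from GENCODE release 44 on GRCh37. The authors' own DESeq2 scaling and FPKM fold changes were not used.

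All 8 libraries were fitted in edgeR 4.0.16 (R 4.3.3) with TMM scaling, filterByExpr, 1 coefficient per line and the robust quasi-likelihood F test, with Benjamini-Hochberg adjustment over 18432 genes. Calls required an adjusted p below 0.05 and a log2 fold change beyond 1 in either direction. SEs were derived from the F statistics. The fit was tested on simulated data with 200 changed genes in M4 against M1. It called 106 of them, all with the right sign, and 10 unchanged genes. By size, it called 13 of 67 genes changed 2-fold (the limit itself), 38 of 67 changed 4-fold and 55 of 66 changed 8-fold. A gene that was not called may therefore still differ. In this simulation, the 10 false calls beside 106 true ones were a larger share than the adjusted p limit of 0.05. Some called genes may therefore not differ. Alternatives were other scalings, other filters on low counts, DESeq2 1.42.0, a replicate block, each library left out, M1 replicate 2 and M2 replicate 1 exchanged, only the 2 lines compared, no fold threshold, and a change over 2-fold in both replicates (CPM with 0.001 added). Intervals and limits from counts cover counting error only, and the labels call the replicates biological without naming separate cultures, so p-values measure the spread between these libraries.

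The markers and gene lists were chosen with earlier results of these data known. Named are the 7 markers, list genes called in at least 2 of the 6 comparisons, the 3 genes most like each marker, genes within 250 kb of it and HRAS; genes called in 1 comparison, and list genes given as not called or at few counts, were chosen after their values were seen. Some genes counted in the lists are not reported here by name.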

Additional observations from a re-analysis of the deposited data

Results flagged for a closer look

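Over the 7 markers and the pairs of M2, M3 and M4, the change from M1 differed between lines in 4 cases. Each was tested by the direct comparison of the 2 lines in edgeR's quasi-likelihood fit, in which the shared M1 libraries cancel. These comparisons were already given above and are not further evidence. Of all genes tested, 4.15% were called in M3 against M2 and 13.9% in M4 against M2. In M4 against M3, 16.8% had an adjusted p under 0.05. For ALDH1A3 the change from M1 was 2.45 higher on the log2 scale in M3 than in M2 (1.25 against -1.20, adjusted p = 0.00271). The change was 3.28 higher in M4 than in M2 (2.08 against -1.20, adjusted p = 0.000389). Between M4 and M3 the difference was 0.82 (adjusted p = 0.0434), under the 2-fold limit used for calls. ALDH1A3 was lower than M1 in both libraries of M2 and higher in both of M3 and M4. For EPCAM the change was 1.35 higher in M4 than in M2 (1.57 against 0.22, adjusted p = 0.00968). With M1 replicate 2 and M2 replicate 1 exchanged, both differences of M4 from M2 were called, and the difference of M3 from M2 (adjusted p = 0.128) and of M4 from M3 (adjusted p = 0.349) for ALDH1A3 were not.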

How the results depend on the processing

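The 7 markers gave 711 values under the alternatives, of which 635 kept their direction and their side of the threshold, 14 lost a call, 39 gained one and 23 changed sign. The called differences of the other named genes gave 2851 values, of which 2421 kept their call, 423 lost it and 7 changed sign. With M1 replicate 2 and M2 replicate 1 exchanged, 0 markers were called in M2 against M1, M3 against M1 and M3 against M2. Without a filter on low counts, 2 were called in M2 against M1 (ALDH1A3 and CD24), 2 in M3 against M2, 3 in M4 against M3 (CD24, PROM1 and SOX9) and 6 over the 4 lines. DESeq2 called 2 in M3 against M2 and 2 in M4 against M3. With only the compared lines in the fit, 2 were called in M2 against M1 and 1 in M4 against M3 (SOX9). Without a fold threshold, 1 was called in M4 against M3 (ALDH1A3). A change over 2-fold in both replicates held for 4 markers in M4 against M2 and 2 in M4 against M3 (CD24 and PROM1). The mean log2 ratio of CD44 to CD24 in M2 was 6.12 with 0.5 CPM added. Other scalings called the same number of markers in each comparison. The share of all genes called was worked out only for the main rule, no fold threshold and the 2-fold rule in both replicates. Counts of markers under the other alternatives, here and below, therefore cannot be set against a background.

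Leaving out 1 library at a time gave 0 to 1 markers called in M2 against M1, 1 to 3 in M3 against M1, 1 to 2 in M3 against M2, 2 to 4 in M4 against M1, 1 to 3 in M4 against M2, 0 to 1 in M4 against M3 and 2 to 4 over the 4 lines. The ratio of CD44 to CD24 was then 3.57 to 4.54 in M1, 6.16 to 6.24 in M2, 5.61 to 8.03 in M3 and 3.65 to 5.28 in M4.

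The deviations of same-numbered replicates correlated at r = 0.25 between M3 and M4, and at -0.09 to 0.01 between the other pairs of lines. Whether M3 and M4 replicates of the same number share more than a number was not tested. A replicate block gave 2 markers in M3 against M2 (EPCAM added) and 1 in M4 against M3 (CD24), 3 in M4 against M2 and 4 over the 4 lines, and not every library correlated best with its own number. With the block, CD24 in M3 against M2 was -0.33.

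Signs changed for values that were not called, and, under the exchange, for M2 against M1 and M3 against M2. Under the exchange, M2 against M1 became 0.13 for ALDH1A1, 2.16 for PROM1, 0.81 for SOX9, -0.027 for PROCR, 0.20 for RARRES1, -0.079 for HMMR, -0.30 for KRT14, 0.32 for KDR and -0.14 for FGFBP1. M3 against M2 became -0.28 for ALDH1A1, -0.80 for CD24, -0.87 for PROM1 and -0.10 for KDR, and M3 against M1 became 1.29 for PROM1. CD24 in M3 against M2 was -0.040 with library totals as scale and -0.34 as the mean over both replicates. With 1 library left out, ALDH1A1 ran from -0.026 to 0.18 in M3 against M2, -0.82 to 0.086 in M4 against M2 and -0.90 to 0.0068 in M4 against M3. CD24 then ran from -0.47 to 1.21 in M4 against M1 and -1.49 to 0.82 in M3 against M2, PROM1 from -1.64 to 1.00 in M3 against M1, and EPCAM from -0.023 to 0.52 in M2 against M1 and -0.017 to 0.64 in M4 against M3. SOX9 ran from -1.02 to 0.41 in M2 against M1, -0.26 to 1.17 in M3 against M1 and -1.32 to 0.089 in M4 against M1. The cause of these changes was not tested. With 2 libraries per line, the markers whose replicates lay far apart (CD24, PROM1 and SOX9) have wide errors, and PROM1 is further limited by its counts.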
